A study of Mus musculus with 11 samples.

Results

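All genes of a sorted mouse thymus fraction were compared between Bcl11b D/N440K and Bcl11b +/+ newborns. The libraries were chosen by their genotype labels: 4 of the 11 libraries of the series, 2 of Bcl11b +/+ and 2 of Bcl11b D/N440K, all of CD24-negative, TCRβ-negative thymocytes taken at postnatal day 0 (P0) and purified by FACS. Of 53801 gene identifiers in the count table of these genotypes, 10910 passed the filter on low counts and were tested. D/N440K pairs the N440K allele with an allele named D, which the labels do not define, so it carries no allele labelled +, while Bcl11b +/+ carries no mutant allele. The same table holds 2 libraries of Bcl11b +/N440K at P0, with 1 mutant and 1 wild-type allele, which share the estimate of spread and serve for a direct comparison. The labels name no strain, Cre or transgene for these 3 groups and do not say whether a library came from 1 animal or from a pool. The series title sets the question as interference of the mutant protein with Bcl11a, and the difference of D/N440K from +/+ is described here across genes. That difference is not all due to the lack of the last wild-type allele, since +/N440K also differs from +/+ in gene groups below.

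Bcl11b is a zinc finger transcription factor that is switched on when precursors in the thymus commit to the T cell lineage, and it is known for holding back natural killer (NK) and innate lymphoid programmes in T cells. Bcl11a is its close relative, with roles in lymphoid progenitors and in neurons. CD24 marks immature thymocytes and TCRβ the αβ T cell lineage, so the fraction left after both are excluded can hold γδ T cells, innate lymphoid cells and early precursors.

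Total counts per library ran from 999381 to 1246272 over the 6 libraries of the table, and 17544 to 18584 genes had a read. Levels are the authors' normalised read counts (CPM), where 1 read stood for 0.816 to 1.02 CPM. Fold changes are log2 values from edgeR's quasi-likelihood fit ± SE, and a gene was called at an edgeR adjusted p under 0.05. Nothing in the labels says that the 2 libraries of a group were separate animals, so a p-value here reflects only how far those libraries lie apart, a spread that may be technical. Replicate counts differed by 1.17 (+/+), 1.42 (+/N440K) and 1.14 (D/N440K) times the sampling noise, as chi-square per degree of freedom. Both sexes' genes were read in every library: Xist ran from 301 to 499.8 CPM and the Y-linked gene Eif2s3y from 50.6 to 73.7. Xist was lower in D/N440K (log2 fold change -0.51 ± 0.093, edgeR adjusted p = 7.43e-05).

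The targeted gene itself was checked first. On the minus strand of chromosome 12, 107910403 to 108003602 (GRCm38), Bcl11b (ENSMUSG00000048251) was read at 641 and 506 CPM in the +/+ libraries and at 152 and 204 CPM in the D/N440K libraries (log2 fold change -1.70 ± 0.114, edgeR adjusted p = 1.3e-14). The groups did not overlap, and both D/N440K libraries lay far below the lower +/+ library. Bcl11a (chromosome 11, 24078056 to 24174123) had 102 and 111 CPM in +/+ and 64.2 and 71.2 CPM in D/N440K (log2 fold change -0.67 ± 0.155, edgeR adjusted p = 0.00191), which no longer passed when D/N440K replicate 1 was left out (-0.59, edgeR adjusted p = 0.0582). Counts run over whole genes, so they do not show which Bcl11b allele the remaining reads came from. Cd24a, which encodes the sort marker, was low throughout, with 25 reads in the 2 +/+ libraries and 5 in the 2 D/N440K libraries (edgeR adjusted p = 0.0186), and leaving out any 1 of the 4 libraries ended its call (edgeR adjusted p between 0.0668 and 0.244).

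edgeR called 1353 of the 10910 tested genes (12.4%). 665 were higher in D/N440K (6.1% of those tested) and 688 were lower (6.31%). The libraries of both genotypes lay fully apart in 1352 of the 1353, against 51% of all tested genes. Genes were called on these same libraries, so that separation follows from the selection and is no further support, here or for single genes below. Falls were the larger changes: the median called log2 fold change was -1.01 among lower genes and 0.80 among higher genes. Without +/+ replicate 1 the number called lower was 452. DESeq2 called 528 genes, all among the 1353. Of the edgeR calls named in the Results, leaving aside the closing section, it did not call Bcl11a, Cd24a, Slamf6, Rapgef4, Tpi1, Lyz2, S100a8, Cd79b, Cdh5 or the globin genes. 42 genes fell past a log2 fold change of 3 and 5 rose past it, while 759 called genes did not pass 1. Across all tested genes the median log2 fold change was 0.0014. The share called was 54% of the 50 genes under an average log2 CPM of 3 (25 lower and 2 higher), 9.1% at 3 to 4 and 19% at 7 or more, where 261 genes were higher and 163 lower.

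**Figure D1:**
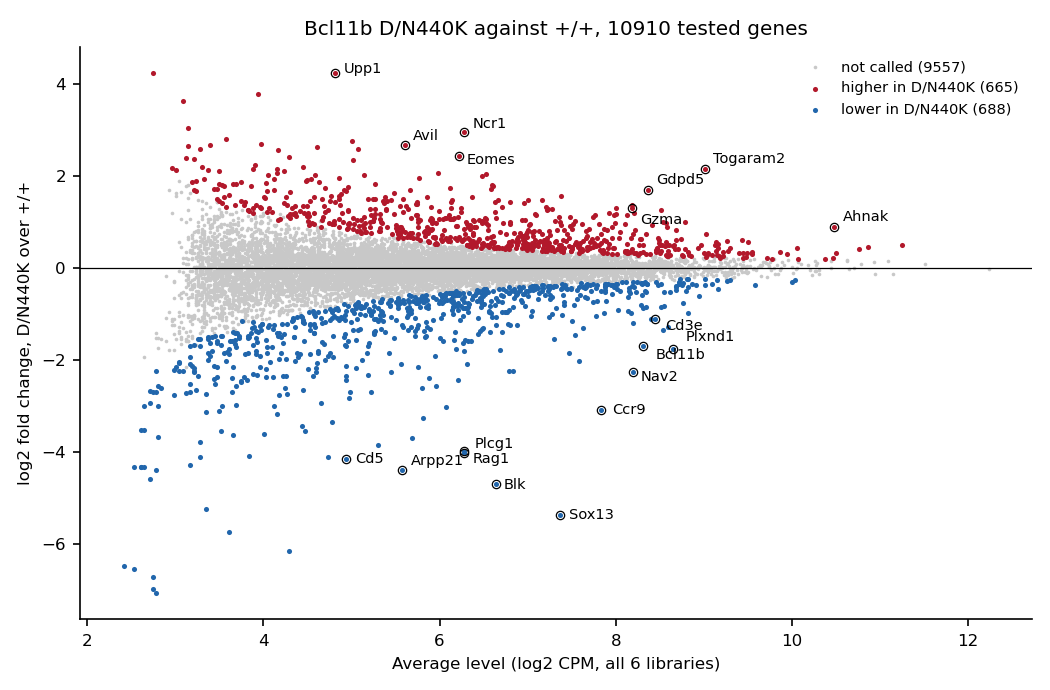
Log2 fold change of D/N440K over +/+ (vertical axis) against average level in log2 CPM (horizontal axis), 1 point per tested gene, with called genes in colour. Falls reach further than rises: 127 genes were called past a log2 fold change of 2 downward and 39 upward.

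The promoters of Ncr1, Itgax and Gzma, which rose, and of Rag1, which fell, are shown because all 4 hold the RUNX motif letters, and RUNX factors serve both T cells and NK cells. Their values follow with their gene groups. Sequences are from RefSeq (GRCm38.p6), 300 bases across the gene start on the gene's strand, at chr7:4337465-4337764 (Ncr1, plus strand), chr7:128129300-128129599 (Itgax, plus strand), chr13:113100932-113101231 (Gzma, minus strand) and chr2:101649483-101649782 (Rag1, minus strand). Capitals mark TGTGGT or its reverse complement ACCACA.
Ncr1: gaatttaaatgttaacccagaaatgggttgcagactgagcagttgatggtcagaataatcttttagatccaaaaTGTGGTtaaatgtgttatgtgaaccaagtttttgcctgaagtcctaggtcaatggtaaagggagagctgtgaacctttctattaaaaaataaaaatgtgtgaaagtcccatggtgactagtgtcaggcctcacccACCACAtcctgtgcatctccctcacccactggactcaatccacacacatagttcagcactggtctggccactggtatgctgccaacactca
Itgax: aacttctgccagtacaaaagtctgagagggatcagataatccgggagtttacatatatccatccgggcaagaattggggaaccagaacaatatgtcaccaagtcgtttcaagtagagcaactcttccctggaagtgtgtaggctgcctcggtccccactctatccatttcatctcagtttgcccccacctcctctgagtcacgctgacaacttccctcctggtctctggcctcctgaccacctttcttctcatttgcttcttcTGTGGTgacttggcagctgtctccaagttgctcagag
Gzma: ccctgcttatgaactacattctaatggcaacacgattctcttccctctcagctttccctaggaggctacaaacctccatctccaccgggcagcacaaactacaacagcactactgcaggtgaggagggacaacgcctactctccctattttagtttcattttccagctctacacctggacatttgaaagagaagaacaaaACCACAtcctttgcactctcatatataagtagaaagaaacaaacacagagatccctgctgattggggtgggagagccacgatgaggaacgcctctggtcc
Rag1: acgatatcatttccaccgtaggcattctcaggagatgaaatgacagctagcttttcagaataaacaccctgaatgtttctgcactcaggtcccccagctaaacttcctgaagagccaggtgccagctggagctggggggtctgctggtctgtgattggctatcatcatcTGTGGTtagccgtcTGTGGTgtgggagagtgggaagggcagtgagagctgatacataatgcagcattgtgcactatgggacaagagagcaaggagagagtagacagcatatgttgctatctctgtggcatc
Ncr1 and Rag1 each hold the letters at 2 places, and Itgax and Gzma at 1. Over promoters of the same length, TGTGGT was found on either strand in 18.3% of those of genes called higher (92 of 504), 10.7% of those called lower (52 of 485), 12.6% of those tested (1018 of 8079) and 16.9% of all 27025. The T-box letters GGTGTGA stood in 2.58% of higher, 4.33% of lower and 3.16% of tested promoters. TGACCA, named for BCL11, stood in 13.5%, 9.9% and 10.6% in the same order. CTTTGA, of TCF and LEF factors, stood in 11.1%, 9.9% and 11.7%, below the tested share in both directions. AGGTCA, of ROR factors, stood in 12.9%, 11.3% and 11.8%, and AGATAA, of GATA factors, in 6.75%, 5.77% and 5.84%. The last letters of TGACCA can also open ACCACA, so these 2 motifs can overlap. These counts describe letters in a window and were not tested.

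In bulk libraries, fewer cells of a type and less RNA per cell cannot be told apart, and this holds for every group of genes below. The T cell receptor (TCR) complex carries antigen signals through the CD3 chains and the ζ chain. Of 12 tested genes of TCR and CD3 chains 8 fell, 1 rose and 3 did not pass the test (median log2 fold change -0.91). Cd3e, a signalling chain of the complex, had 508 and 496 CPM in +/+ and 235 and 231 CPM in D/N440K (log2 fold change -1.11 ± 0.0889, edgeR adjusted p = 1.6e-12). Trdc, the constant region of the δ chain, had 287 and 281 CPM against 114 and 116 CPM (log2 fold change -1.30 ± 0.117, edgeR adjusted p = 2.91e-11). Both pairs of libraries stood well apart. Tcrg-C1, a γ chain constant region, fell from 91 and 91.3 CPM to 49.7 and 40.7 CPM, and Trac, that of the α chain, from 33.8 and 24.9 CPM to 6 and 5.09 CPM (log2 fold change -2.35).

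Signalling genes downstream of the receptor mostly fell where they were called. Of 39 tested genes of proximal TCR signalling 15 fell, 3 rose and 21 did not pass the test (median log2 fold change -0.24). A few related genes, picked after their values were seen, moved in opposite directions. Plcg1, the phospholipase that makes calcium and diacylglycerol signals in T cells, had 150.4 and 167 CPM in +/+ and 6.85 and 13.2 CPM in D/N440K (log2 fold change -4.01 ± 0.235, edgeR adjusted p = 1.63e-16). Plcg2, the enzyme of B and NK cells, had 221 and 230.0 CPM against 456 and 412 CPM (log2 fold change 0.95 ± 0.0989, edgeR adjusted p = 1.35e-09). The Plcg1 reads of D/N440K were near the bottom of the measured range, and those of Plcg2 were the higher of the pair in every library. Zap70, the kinase that docks on the ζ chain, had 348 and 339.6 CPM against 223 and 222 CPM (log2 fold change -0.63 ± 0.0993, edgeR adjusted p = 8.5e-06). Its relative Syk had 104 and 116 CPM against 238 and 207 CPM (log2 fold change 1.01 ± 0.124, edgeR adjusted p = 5.37e-08). Zap70 stood above Syk in both +/+ libraries, and in D/N440K the libraries of the 2 genes overlapped.

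Cd247, the ζ chain, had 135 and 142 CPM in +/+ and 54 and 48.9 CPM in D/N440K (log2 fold change -1.43 ± 0.154, edgeR adjusted p = 3.15e-09). Fcer1g, the related γ chain used by Fc and NK receptors, had 153 and 156 CPM against 226 and 255 CPM (log2 fold change 0.63 ± 0.113, edgeR adjusted p = 6.38e-05). In neither gene did the groups overlap, and they moved in opposite directions. Txk, a kinase of the Tec family, rose (log2 fold change 0.60 ± 0.125, edgeR adjusted p = 0.000521). Lat, the adaptor phosphorylated by Zap70, had 351 and 293 CPM against 139 and 173 CPM (log2 fold change -1.05 ± 0.117, edgeR adjusted p = 6.51e-09). Themis, a regulator of thymocyte selection, fell too (-1.62). Cd5, a receptor that tunes TCR signals, had 67.5 and 68.1 CPM against 3.43 and 4.07 CPM (log2 fold change -4.15 ± 0.345, edgeR adjusted p = 3.04e-12), and its neighbour and relative Cd6 had 93.1 and 84.7 CPM against 6.85 and 5.09 CPM (log2 fold change -3.85 ± 0.293, edgeR adjusted p = 2.73e-13). Both were left with few reads, 8 for Cd5 and 13 for Cd6 over the 2 D/N440K libraries. Levels per gene are not corrected for length, so the order of 2 genes within a library is an order of reads and not of transcripts.

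**Figure D2:**
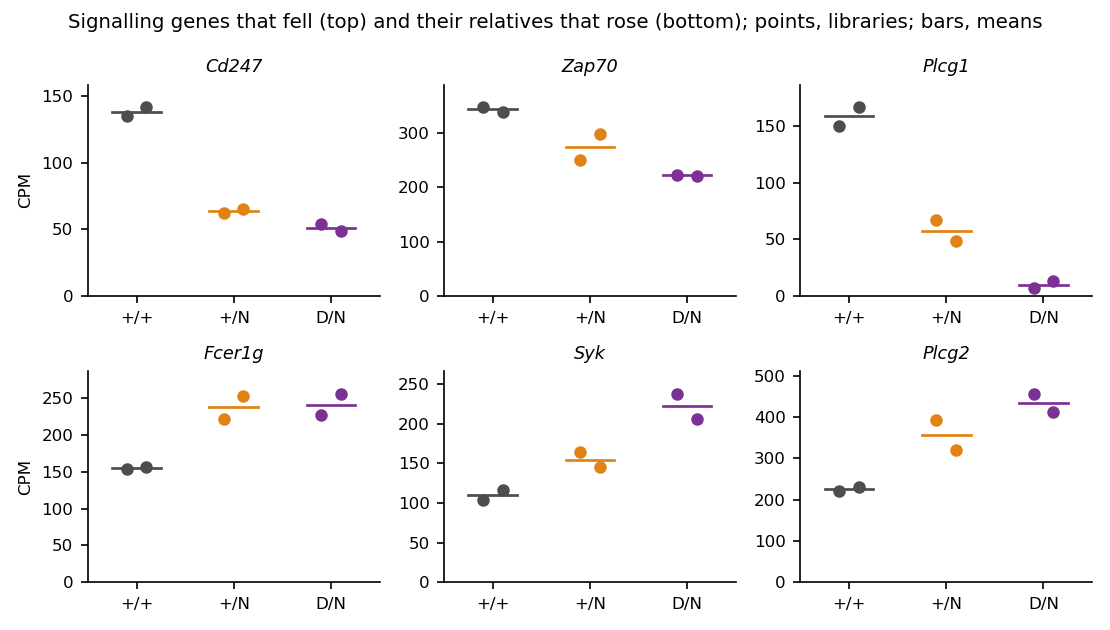
CPM per library for Cd247, Zap70 and Plcg1 (top row, lower in D/N440K) and their relatives Fcer1g, Syk and Plcg2 (bottom row, higher in D/N440K). Each point is 1 library, bars are group means, N stands for N440K and each axis starts at 0.

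The pre-TCR and double-positive stage list, of the stages at which the αβ receptor is assembled and both coreceptors are carried, had the lowest median of the lists. Of 13 tested members 12 fell and 1 did not pass the test (median log2 fold change -2.68), and their summed level was 1252 to 1326 CPM in +/+ and 299.2 to 305.7 CPM in D/N440K. In +/N440K, with 1 wild-type allele, that level was already down at 386.9 to 434.1 CPM. Rag1, of the recombinase that joins receptor gene segments, had 209.7 and 216 CPM in +/+ and 8.56 and 19.3 CPM in D/N440K (log2 fold change -3.97 ± 0.205, edgeR adjusted p = 2.79e-18). Cd8a, a coreceptor chain, had 147 and 136 CPM against 15.4 and 19.3 CPM (log2 fold change -3.03 ± 0.2, edgeR adjusted p = 6.89e-15). Cd8b1 had 62.4 and 72.2 CPM against 6 and 7.12 CPM (log2 fold change -3.35 ± 0.311, edgeR adjusted p = 5.7e-11), and Cd4 69.6 and 68.9 CPM against 12.8 and 8.14 CPM (log2 fold change -2.68 ± 0.281, edgeR adjusted p = 1.34e-09). In these 4 genes the lowest +/+ library was several times the highest D/N440K library. Arpp21, a gene of double-positive thymocytes, had 129.9 and 127 CPM against 0.856 and 12.2 CPM (log2 fold change -4.38 ± 0.319, edgeR adjusted p = 1.05e-13), and without D/N440K replicate 2 its log2 fold change was -7.05. These cells belong outside the sorted gate, and how far such cells in the +/+ libraries set the change was not tested.

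Most genes of the γδ and IL-17 programme fell as well. Of 24 tested members 15 fell, 2 rose and 7 did not pass the test (median log2 fold change -1.24). Sox13, a factor of IL-17-making γδ cells, had 541 and 394 CPM in +/+ and 9.42 and 13.2 CPM in D/N440K (log2 fold change -5.36 ± 0.203, edgeR adjusted p = 2.77e-22). Blk, a Src family kinase of the same cells, had 281 and 236 CPM against 12 and 7.12 CPM (log2 fold change -4.70 ± 0.206, edgeR adjusted p = 1.35e-20). Both genes were among the most abundant of those that nearly vanished. Maf, a factor of IL-17 producers, had 443 and 419 CPM against 204 and 173 CPM (log2 fold change -1.18 ± 0.0979, edgeR adjusted p = 3.45e-12). The cytokine receptors of the programme fell too: Il23r had a log2 fold change of -2.93 and Il1r1 of -2.40, with 24 and 19.3 CPM of Il1r1 left in D/N440K. Ccr2, a chemokine receptor of the list that is shared with other lymphocytes, was 1 of the 2 that rose (0.96).

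Transcription factors of the T lineage fell in 15 of 27 cases, rose in 2 and did not pass the test in 10 (median log2 fold change -0.32). Without +/+ replicate 1 the number called dropped from 17 to 11. Lef1, a Wnt pathway factor that works beside Tcf7 in thymocytes, had 345 and 329 CPM in +/+ and 96.8 and 89.6 CPM in D/N440K (log2 fold change -1.85 ± 0.115, edgeR adjusted p = 1.55e-15). Myb had 208 and 179 CPM against 46.2 and 68.2 CPM (log2 fold change -1.77 ± 0.16, edgeR adjusted p = 3.28e-11), and Satb1, a chromatin organiser, 651 and 535 CPM against 212 and 254 CPM (log2 fold change -1.35 ± 0.0992, edgeR adjusted p = 1.35e-13). These 3 factors did not overlap between groups and fell less far than the coreceptor genes above. Ikzf2 (Helios, -0.98), Ets2 (-1.38) and Id3, an inhibitor of E proteins (-1.59), fell too. Tcf7 itself changed little (log2 fold change -0.37 ± 0.0772, edgeR adjusted p = 0.000443), and no longer passed when +/+ replicate 1 was left out (-0.23, edgeR adjusted p = 0.0902). Gata3 did not pass the test, with 277 and 254 CPM against 229 and 224 CPM (log2 fold change -0.23 ± 0.101, edgeR adjusted p = 0.164), nor did Runx3 (log2 fold change 0.11 ± 0.0739, edgeR adjusted p = 0.42). Zbtb7b, which encodes ThPOK, was 1 of the 2 that rose (log2 fold change 1.15 ± 0.142, edgeR adjusted p = 6.12e-08). Notch3, a receptor gene induced during thymocyte development, had 162 and 158 CPM against 29.1 and 29.5 CPM (log2 fold change -2.44 ± 0.178, edgeR adjusted p = 1.05e-13), while in the Notch pathway list 4 of 27 tested genes rose, 2 fell and 21 did not pass the test (median log2 fold change 0.12, 3 to 4 called without any 1 library).

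NK receptor genes moved the other way. Of 24 tested members, of 35 listed in the count table, 20 rose, 1 fell and 3 did not pass the test (median log2 fold change 0.95), and their summed level went from 1252 to 1367 CPM in +/+ up to 2516 to 2571 CPM in D/N440K. In +/N440K that level was already up at 2117 to 2237 CPM. Ncr1, which encodes the activating receptor NKp46, had 20.5 and 13.3 CPM in +/+ and 139 and 118 CPM in D/N440K (log2 fold change 2.96 ± 0.215, edgeR adjusted p = 1.05e-13). Klrb1c (NK1.1) had 50.1 and 60.6 CPM against 153 and 148 CPM (log2 fold change 1.43 ± 0.15, edgeR adjusted p = 1.38e-09), and Slamf7 had 75.7 and 90.5 CPM against 197 and 209.7 CPM (log2 fold change 1.28 ± 0.132, edgeR adjusted p = 1.1e-09). All of these were read in +/+ as well, at lower levels. Cd244a rose by 0.95 and Klrk1, the receptor NKG2D, by 1.12 on the log2 scale. Slamf6 was the member that fell (-1.63). Klr genes lie in families of near-identical copies, so reads may have been split between them.

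Factors of NK cells and type 1 innate lymphoid cells rose in 7 of 17 cases, fell in 3 and did not pass the test in 7. The median log2 fold change of this list was 0.275, with estimates from -1.13 to 2.44. The members named in this paragraph are all among the 7 that rose. Without +/+ replicate 1 the number called dropped from 10 to 6. Eomes had 17.4 and 25.7 CPM in +/+ and 141 and 94.7 CPM in D/N440K (log2 fold change 2.44 ± 0.218, edgeR adjusted p = 2.62e-11). Tbx21, which encodes T-bet, had 141 and 144 CPM against 295 and 345 CPM (log2 fold change 1.16 ± 0.115, edgeR adjusted p = 4.05e-10), and Id2, the E protein inhibitor that innate lymphoid cells require, 276 and 279.8 CPM against 534 and 581 CPM (log2 fold change 1.00 ± 0.0857, edgeR adjusted p = 8.35e-12). Each of the 3 started from a different level and none overlapped between groups. Zfp683 (Hobit) rose by 1.03. Zbtb16, which encodes PLZF of innate-like T cells and lymphoid precursors, is not 1 of those 17 and fell (log2 fold change -0.55 ± 0.0917, edgeR adjusted p = 2.24e-05). Of 22 tested genes of innate lymphoid precursors 8 rose and 6 fell, so that list had no single direction (median log2 fold change -0.019).

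Effector genes rose with the receptors. Of 18 tested genes of cytotoxic granules and NK cytokines 11 rose, none fell and 7 did not pass the test (median log2 fold change 0.84). Gzma, a granule protease, had 147 and 161 CPM in +/+ and 408 and 361 CPM in D/N440K (log2 fold change 1.32 ± 0.106, edgeR adjusted p = 1.85e-12). Gzmb had 98.2 and 144 CPM against 253 and 279.9 CPM (log2 fold change 1.11 ± 0.125, edgeR adjusted p = 8.64e-09), and Gzmc rose by 1.44. Granzyme genes also lie in a family of similar copies. The chemokines Xcl1 (log2 fold change 0.93 ± 0.152, edgeR adjusted p = 1.49e-05) and Ccl5 (log2 fold change 0.66 ± 0.0971, edgeR adjusted p = 1.93e-06) and the death ligand Tnfsf10 (TRAIL, log2 fold change 0.79 ± 0.101, edgeR adjusted p = 1.25e-07) rose as well.

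**Figure D3:**
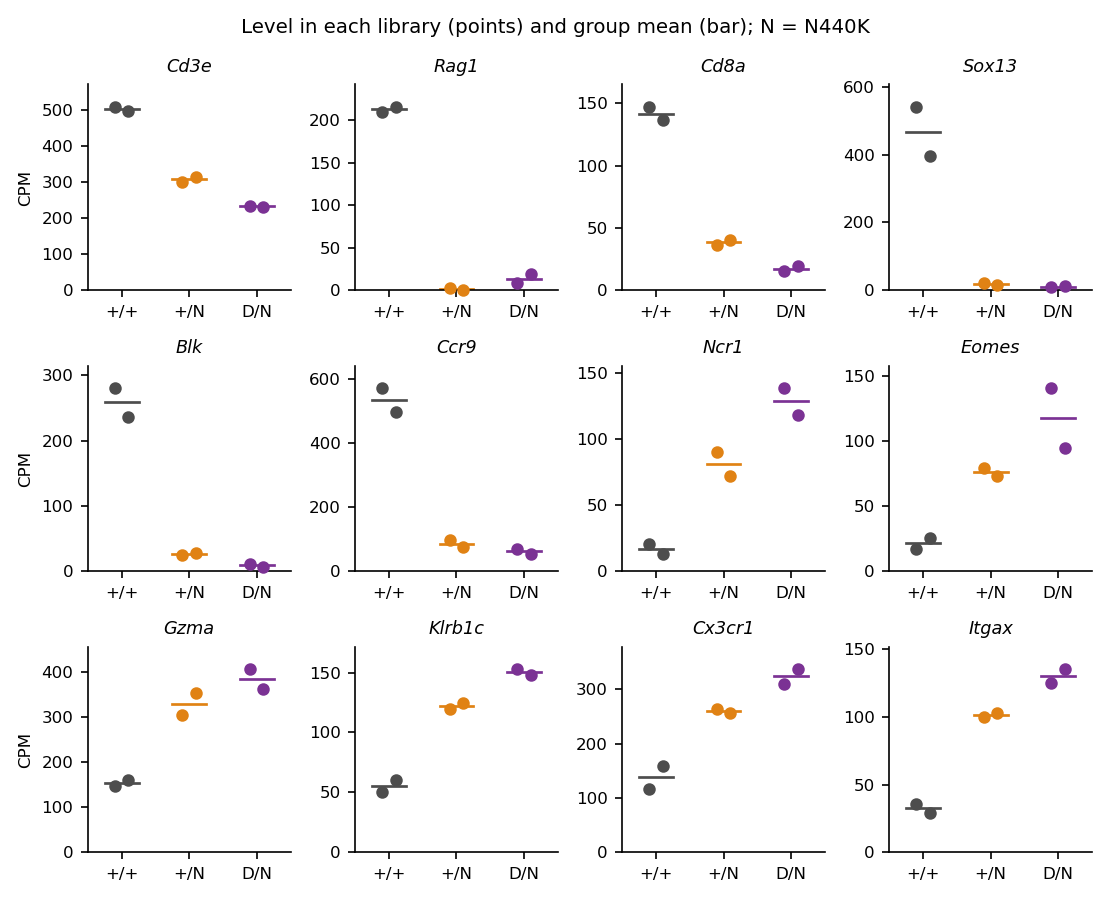
CPM per library of 6 genes that fell (Cd3e, Rag1, Cd8a, Sox13, Blk, Ccr9) and 6 that rose (Ncr1, Eomes, Gzma, Klrb1c, Cx3cr1, Itgax) in D/N440K (D/N) against +/+, with +/N440K (+/N) alongside. Points are libraries, bars group means, and no D/N440K point reaches the +/+ range.

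Cytokine receptors moved both ways. Of 36 tested genes 10 fell, 5 rose and 21 did not pass the test (median log2 fold change -0.082). The subunits of the IL-18 receptor rose, Il18rap from 152 and 182 CPM to 391 and 388 CPM (log2 fold change 1.21 ± 0.101, edgeR adjusted p = 4.76e-12) and Il18r1 from 249 and 227 CPM to 489 and 439.7 CPM (log2 fold change 0.97 ± 0.0918, edgeR adjusted p = 1.04e-10). Il12rb2 rose by 1.09. Il2rb, the β chain shared by the receptors of IL-2 and IL-15 and the most abundant of the list, had 1522 and 1491 CPM against 2003 and 2139 CPM (log2 fold change 0.46 ± 0.0629, edgeR adjusted p = 5.86e-07). Il21r (-1.58), Il6st, the gp130 subunit of the IL-6 family (-1.49), and Il4ra (-0.95) fell. Il7r, the receptor that early T cells and lymphoid precursors live on and chosen after its values were seen, was not past the test, with 157 and 168 CPM against 149.9 and 134 CPM (log2 fold change -0.19 ± 0.126, edgeR adjusted p = 0.418).

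Homing receptors also moved both ways. Of 24 tested chemokine and S1P receptors 7 rose, 6 fell and 11 did not pass the test. Ccr9, which guides cells to the thymus and gut, had 572 and 497 CPM in +/+ and 71.1 and 53.9 CPM in D/N440K (log2 fold change -3.07 ± 0.127, edgeR adjusted p = 2.38e-21). The annotated span of Ccr9 overlaps others, and whether counting used strand is not given in the sources used here. Ccr7, the receptor for lymph node entry (log2 fold change -1.84), and Ccr4 (-2.02) fell too. Cx3cr1 had 117 and 159 CPM against 309 and 338 CPM (log2 fold change 1.21 ± 0.115, edgeR adjusted p = 1.35e-10). Cxcr3, a receptor of T-bet-expressing lymphocytes, rose by 0.89. For Cx3cr1 both D/N440K libraries lay above both +/+ libraries.

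Integrins rose in 9 of 17 cases, fell in 2 and did not pass the test in 6. Itgax, which encodes CD11c, had 35.8 and 29.1 CPM in +/+ and 125 and 135 CPM in D/N440K (log2 fold change 2.01 ± 0.175, edgeR adjusted p = 1.26e-11). Itga2 (CD49b), a marker of NK cells, had 26.6 and 27.4 CPM against 83.1 and 74.3 CPM (log2 fold change 1.54 ± 0.209, edgeR adjusted p = 4.05e-07), and its neighbour Itga1 (CD49a), of tissue-resident innate lymphoid cells, 110.5 and 119.6 CPM against 248 and 219.8 CPM (log2 fold change 1.02 ± 0.125, edgeR adjusted p = 4.73e-08). Their shared partner Itgb1 rose by 1.02 and Itga4 by 0.61, so both chains of the collagen receptors were higher. Myeloid markers, from cells that also carry Itgax, summed to 187.1 to 223.1 CPM in +/+ and 416.7 to 440.2 CPM in D/N440K. The part of such cells in these changes was not tested. Itgb5 fell by 1.35. Among 46 genes of the cytoskeleton and motility 11 rose and 4 fell (10 called without D/N440K replicate 1, against 15). Ahnak, a large scaffold protein of the plasma membrane, had 961 and 892 CPM against 1731 and 1691 CPM (log2 fold change 0.89 ± 0.0649, edgeR adjusted p = 1.26e-13). Anxa2, Lgals3 and Vim rose by 0.66, 0.74 and 0.44, and Actn1, an actin crosslinker, fell by 1.47.

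Guidance receptors, best known from axons and also used by migrating thymocytes, changed in 15 of 21 cases, 8 lower and 7 higher. Plxnd1, the receptor for semaphorin 3E, had 682 and 600.3 CPM in +/+ and 184 and 195 CPM in D/N440K (log2 fold change -1.75 ± 0.0939, edgeR adjusted p = 9.78e-18). Ephb2 (-2.20) and Ephb6, an Eph receptor without kinase activity (-1.37), fell. L1cam, an adhesion molecule of neurons, had 30.7 and 33.2 CPM against 81.4 and 99.7 CPM (log2 fold change 1.48 ± 0.197, edgeR adjusted p = 2.67e-07), and Sema4a rose by 0.57.

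Genes of cyclic AMP signalling moved both ways: of 22 tested genes of cyclic nucleotide signalling 3 fell, 2 rose and 17 did not pass the test (median log2 fold change -0.045, 3 called without +/+ replicate 2). Of 25 exchange factors and GAPs of Ras and Rap 6 rose, 5 fell and 14 did not pass the test (5 to 7 called without any 1 library). Adcy6, an adenylyl cyclase, had 154 and 103 CPM in +/+ and 10.3 and 9.16 CPM in D/N440K (log2 fold change -3.68 ± 0.268, edgeR adjusted p = 1.05e-13). Rapgef3, which encodes the cyclic AMP sensor EPAC1, had 33.8 and 26.6 CPM against 0.856 and 4.07 CPM (log2 fold change -3.62 ± 0.522, edgeR adjusted p = 1.1e-06), and its relative Rapgef4 fell by 2.52. Pde4d, a phosphodiesterase, had 113 and 109 CPM against 15.4 and 21.4 CPM (log2 fold change -2.60 ± 0.211, edgeR adjusted p = 2.11e-12), whereas Pde4a had 67.5 and 66.4 CPM against 132 and 136 CPM (log2 fold change 1.00 ± 0.145, edgeR adjusted p = 1.66e-06). The 2 phosphodiesterases thus moved in opposite directions. Rap1gap2 rose by 1.11 and Rasgrp1, which links the TCR to Ras, fell by 0.58. Among 29 ion channel genes 6 fell and 1 rose. P2rx7, a channel gated by extracellular ATP, had 50.1 and 59.8 CPM against 5.14 and 4.07 CPM (log2 fold change -3.54 ± 0.356, edgeR adjusted p = 4.4e-10), and the potassium channels Kcnn4 and Kcna3, which set the calcium drive in T cells, fell, with log2 fold changes of -0.90 and -0.92.

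Most tested glycolysis genes fell, with estimates in the list from -1.848 to -0.082. Of 19 tested members 12 fell and 7 did not pass the test, and all 19 estimates were below 0 (median log2 fold change -0.43). Pfkp, a phosphofructokinase, had 345 and 358 CPM in +/+ and 201 and 174 CPM in D/N440K (log2 fold change -0.90 ± 0.101, edgeR adjusted p = 6.51e-09). Pfkl had 208 and 214 CPM against 111 and 97.7 CPM (log2 fold change -1.01 ± 0.126, edgeR adjusted p = 7.21e-08), and Slc16a3, the lactate exporter, 135 and 147 CPM against 79.6 and 66.2 CPM (log2 fold change -0.95 ± 0.16, edgeR adjusted p = 2.43e-05). The abundant enzymes moved less, with Tpi1 at -0.72 and Pkm and Aldoa at -0.41 each. The summed level of the list was 3684 to 3752 CPM in +/+, 2843 to 3049 CPM in +/N440K and 2705 to 2753 CPM in D/N440K. Of 20 cholesterol synthesis genes 5 fell and none rose (2 to 4 called without any 1 library). Slc43a2, an amino acid transporter, fell by 0.97. Of 79 oxidative phosphorylation genes edgeR, DESeq2 and limma-voom called 0, with 3 at an unadjusted p under 0.05, and of 69 cytosolic ribosomal protein genes all 3 tools called 0, with 0 at that level.

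MHC class I genes mostly rose. Of 16 MHC class I and antigen processing genes 9 rose and 1 fell, with H2-Q7 at 1.49 and H2-K1 at 0.33, and 4 to 6 were called without any 1 library. H2-Q genes are near-identical copies, so each value may hold reads of its relatives. Of 44 glycosyltransferases 9 rose and 4 fell (7 called without +/+ replicate 2 or D/N440K replicate 2, against 13). St8sia1, the ganglioside GD3 synthase, had 101 and 74.7 CPM in +/+ and 13.7 and 23.4 CPM in D/N440K (log2 fold change -2.25 ± 0.248, edgeR adjusted p = 4.41e-09), and St6gal1 fell by 1.39. Pdcd1, which encodes PD-1, had 197 and 219 CPM against 39.4 and 49.9 CPM (log2 fold change -2.24 ± 0.165, edgeR adjusted p = 1.33e-13). Tnfrsf9 (4-1BB) rose by 1.10 and Cd27 fell by 0.74. Among 21 genes of AP-1 and the immediate early response 4 rose and none fell, Egr2 from 7.16 and 9.96 CPM to 28.3 and 38.7 CPM (log2 fold change 1.91 ± 0.367, edgeR adjusted p = 0.000143). Of 34 genes of G2 and mitosis 6 rose and none fell, and 0 were called without D/N440K replicate 2. Igf2bp1, an RNA-binding protein of fetal cells, had 75.7 and 68.9 CPM against 34.3 and 31.6 CPM (log2 fold change -1.12 ± 0.204, edgeR adjusted p = 7.33e-05).

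**Figure D4:**
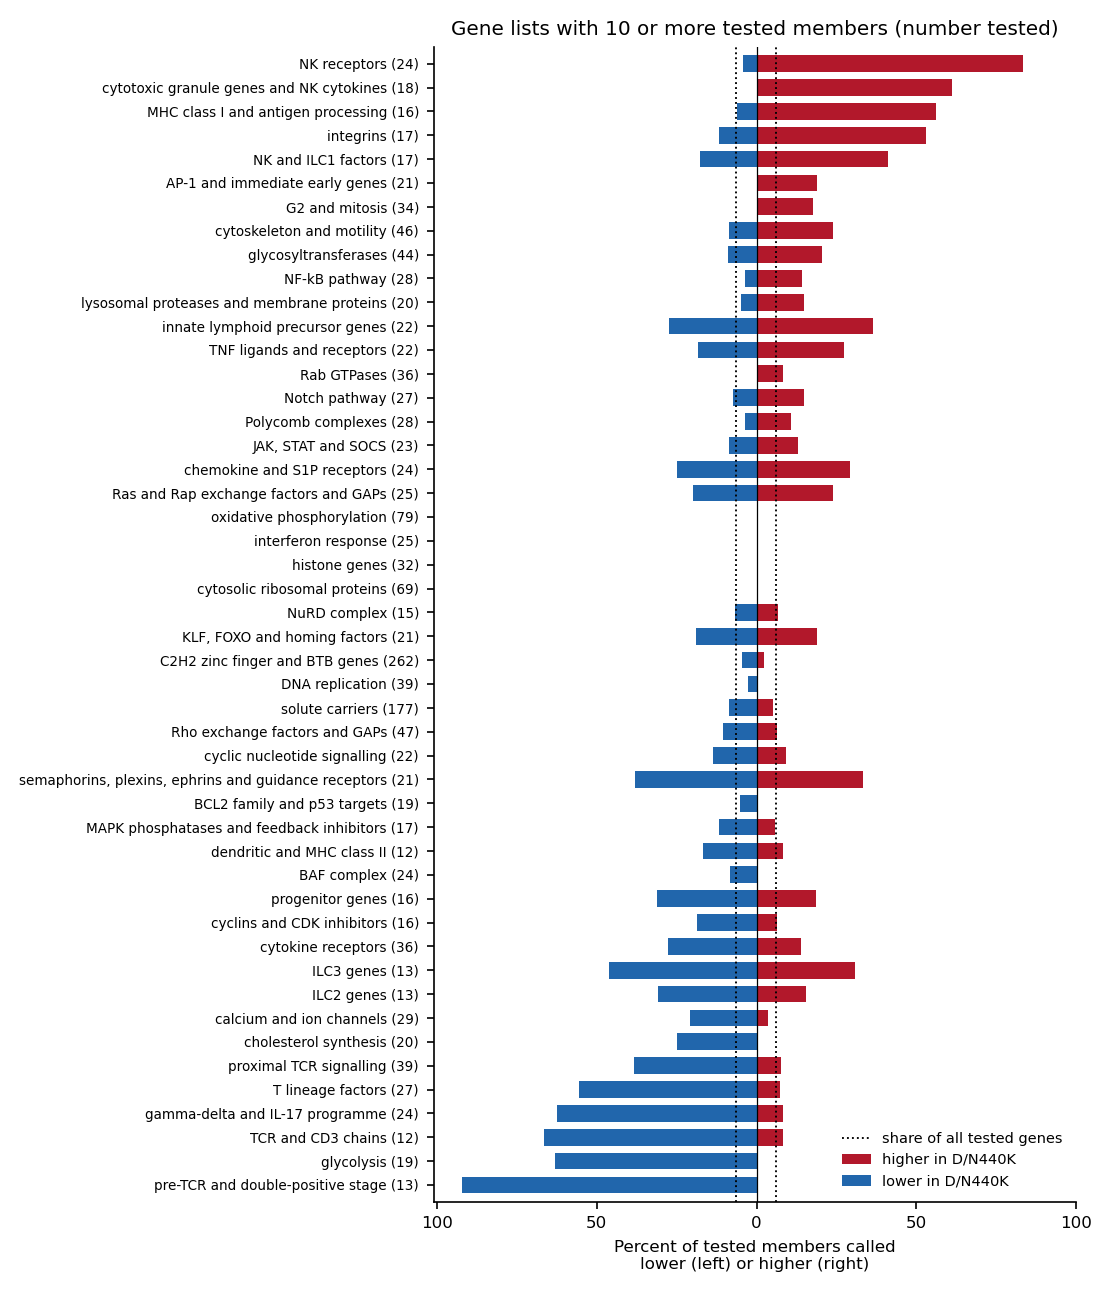
Percent of the tested members of each list called lower (left) or higher (right) in D/N440K against +/+, for lists with 10 or more tested members, sorted by the difference. Dotted lines mark the shares among all tested genes, 6.31% lower and 6.1% higher, and the NK receptor and pre-TCR lists stand at opposite ends.

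Markers of cell types outside the intended fraction also moved with genotype, and their summed levels are given over each whole list, as reads over the library total. Of 19 myeloid genes 7 were tested, of which 4 rose and 3 did not pass the test. Among these 7, 2 estimates were below 0. Elane, C1qa and S100a9 had no read in any library. Of the list's reads, Lyz2 held 44 and 144 of 187 and 270 in +/+ and 248 and 202 of 496 and 443 in D/N440K. Lyz2 had 45 and 119.6 CPM in +/+ and 212 and 206 CPM in D/N440K (log2 fold change 1.29 ± 0.177, edgeR adjusted p = 6.07e-07), with 2.21 without +/+ replicate 2 and 0.81 without +/+ replicate 1. Csf1r rose by 1.17, Ly6c2 by 1.07 and S100a8 by 2.56, the last not called when D/N440K replicate 1 was left out (edgeR adjusted p = 0.134). The 3 globin genes Hbb-bs (1.58), Hba-a1 (2.38) and Hba-a2 (2.13) rose. The summed erythroid level was 29.7 to 64.0 CPM in +/+ and 94.9 to 124 CPM in D/N440K, and all 3 globin calls were lost without +/+ replicate 2 (Hbb-bs 0.73, Hba-a1 1.48, Hba-a2 1.79), as were that of Hba-a1 without D/N440K replicate 2 and that of Hba-a2 without either D/N440K library. Without +/+ replicate 1, Hbb-bs was at 3.15 and Hba-a1 at 4.21. Of 15 B lineage genes 4 were tested and 2 fell, Ighm (log2 fold change -0.79 ± 0.0939, edgeR adjusted p = 2.57e-08) and Cd79b (-1.47, lost without +/+ replicate 2 or D/N440K replicate 2), with a summed level of 450.3 to 462 CPM in +/+ and 264 to 286 CPM in D/N440K and no read of Pax5 or Ms4a1 in any library. Ighm held 393 and 470 of the 450 and 559 reads of this list in +/+. In D/N440K it held 277 and 215 of 340 and 266 reads, so the B lineage sum mostly follows that gene. Of 15 stroma and epithelium genes 4 were tested and 2 fell, Pdgfrb (-1.53) and Cdh5 (-1.43, lost without D/N440K replicate 1), with a summed level of 177 to 185 CPM in +/+ and 97.5 to 117 CPM in D/N440K. Of 14 dendritic and MHC class II genes 12 were tested, 1 rose (Itgax) and 2 fell (median log2 fold change -0.14). Their summed level was 921 to 1102 CPM in +/+ and 946 to 1012 CPM in D/N440K. That sum includes Itgax, with 35 and 35 reads in +/+ and 146 and 133 in D/N440K, so it can hide falls of other members. The 10 mast and basophil genes summed to 6.61 to 14.01 CPM in +/+ and 7.56 to 15.9 CPM in D/N440K. The part of these cells in the changes of Syk, Plcg2 and Fcer1g, which several of them express, was not tested.

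Beyond the groups above, large changes were found in genes with few known links to thymocytes. Zp1, of the zona pellucida family, had 90 reads in the 2 +/+ libraries and 1 in the 2 D/N440K libraries, a ratio of 88.7 (exact 95% interval 15.5 to 3541, counting error only, edgeR adjusted p = 1.61e-10). Pdlim4, an actin-associated LIM protein, had 85.9 and 49 CPM in +/+ and 2.57 and 5.09 CPM in D/N440K (log2 fold change -4.11 ± 0.393, edgeR adjusted p = 1.2e-10). Nav2, a neuron navigator gene of high level here, had 649.6 and 504 CPM against 116 and 122 CPM (log2 fold change -2.27 ± 0.113, edgeR adjusted p = 1.12e-18). Zbtb8b, a zinc finger gene, had 22 reads in +/+ and 0 in D/N440K, at least 7.23-fold lower with a floor of 3 reads over the group (edgeR adjusted p = 0.000341). Among rises, Upp1, a uridine phosphorylase, had 2.05 and 2.49 CPM in +/+ and 54.8 and 34.6 CPM in D/N440K (log2 fold change 4.24 ± 0.482, edgeR adjusted p = 6.51e-09). Avil, an actin regulator of the villin family, had 8.18 and 17.4 CPM against 89.1 and 82.4 CPM (log2 fold change 2.69 ± 0.25, edgeR adjusted p = 7.2e-11), and Togaram2, a tubulin-binding protein, 175 and 167 CPM against 775 and 734 CPM (log2 fold change 2.15 ± 0.0886, edgeR adjusted p = 2.38e-21). Upp1 was close to absent in +/+, while Togaram2 was already abundant there. Prr5l, a partner of the mTORC2 kinase, rose by 2.05, Gdpd5, a glycerophosphodiester phosphodiesterase, by 1.70, Gas7 by 1.30 and Bsn, a presynaptic scaffold gene, by 1.27.

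The direct comparison of D/N440K with +/N440K asks what going from 1 wild-type allele to none adds, and it uses no +/+ library. edgeR called 58 of 10910 genes (0.532%), 31 higher in D/N440K (0.284%) and 27 lower (0.247%), with 851 at an unadjusted p under 0.05. Without D/N440K replicate 1 the number was 25, and without D/N440K replicate 2 it was 35, of which 9 were lower. DESeq2 called 4 of the 58, Plcg1, Plxnd1 and Mtmr9 among them. Plcg1 had 66.9 and 48.4 CPM in +/N440K and 6.85 and 13.2 CPM in D/N440K (log2 fold change -2.57 ± 0.293, edgeR adjusted p = 5.05e-07). Plxnd1 had 351 and 387 CPM against 184 and 195 CPM (log2 fold change -0.96 ± 0.101, edgeR adjusted p = 1.33e-07). In both genes +/N440K lay between the other genotypes, with no overlap. Ptgdr2, a prostaglandin D2 receptor, had 68.5 and 86.9 CPM in +/N440K and 30.8 and 36.6 CPM in D/N440K (log2 fold change -1.20 ± 0.199, edgeR adjusted p = 0.000835). Gdpd5 was called higher and also lay in stepwise order, with 362 and 309.9 CPM in +/N440K and 473 and 521 CPM in D/N440K (log2 fold change 0.55 ± 0.093, edgeR adjusted p = 0.000835). These 4 calls held when each of the 4 libraries compared was left out in turn.

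Other called genes left the stepwise order. Rag1 had 2.45 and 0.987 CPM in +/N440K, below its D/N440K level of 8.56 and 19.3 CPM (log2 fold change 2.84 ± 0.621, edgeR adjusted p = 0.0142), which ended when +/N440K replicate 2 (edgeR adjusted p = 0.0951) or D/N440K replicate 2 (edgeR adjusted p = 0.351) was left out. Dlg5, a scaffold of cell polarity, had 140.2 and 143 CPM in +/+, 246 and 246 CPM in +/N440K and 159 and 154 CPM in D/N440K (log2 fold change -0.65 ± 0.108, edgeR adjusted p = 0.000835). Mtmr9, a myotubularin-related gene, had 113 and 135 CPM, 57.1 and 53.3 CPM and 122 and 120.1 CPM in the same order (log2 fold change 1.13 ± 0.158, edgeR adjusted p = 4.59e-05). For Dlg5 and Mtmr9 the +/N440K libraries stood apart while D/N440K lay near +/+, and neither gene passed the test of D/N440K against +/+ (log2 fold changes 0.15 and -0.04). Hbb-bs was also called against +/N440K (log2 fold change 2.96 ± 0.441, edgeR adjusted p = 0.000137), with 5.58 without +/N440K replicate 1.

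Several genes with large changes against +/+ were called here on thinner evidence. Cd5 (log2 fold change -2.0 ± 0.483, edgeR adjusted p = 0.0324) and Blk (log2 fold change -1.45 ± 0.345, edgeR adjusted p = 0.0311) were lower in D/N440K, and both calls were lost without either D/N440K library or +/N440K replicate 2, that of Cd5 also without +/N440K replicate 1. Ncr1 (log2 fold change 0.66 ± 0.15, edgeR adjusted p = 0.0252), Syk (log2 fold change 0.52 ± 0.116, edgeR adjusted p = 0.021) and Avil (log2 fold change 1.05 ± 0.193, edgeR adjusted p = 0.00307) were higher, and leaving out D/N440K replicate 1 ended all 3 calls (edgeR adjusted p = 0.452 for Ncr1 and Syk, and 0.07 for Avil). Ncr1 and Syk also lost theirs without +/N440K replicate 2. For most genes described above no difference between the 2 mutant genotypes was called, which does not show that they were alike: for Sox13 the difference was log2 fold change -0.78 ± 0.409, edgeR adjusted p = 0.67, for Ccr9 log2 fold change -0.46 ± 0.176, edgeR adjusted p = 0.374, for Eomes log2 fold change 0.65 ± 0.165, edgeR adjusted p = 0.0561 and for Bcl11b log2 fold change -0.21 ± 0.133, edgeR adjusted p = 0.786. The comparisons with +/+ and with +/N440K share the D/N440K libraries, so their values are set side by side and no overlap between them is counted.

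**Figure D5:**
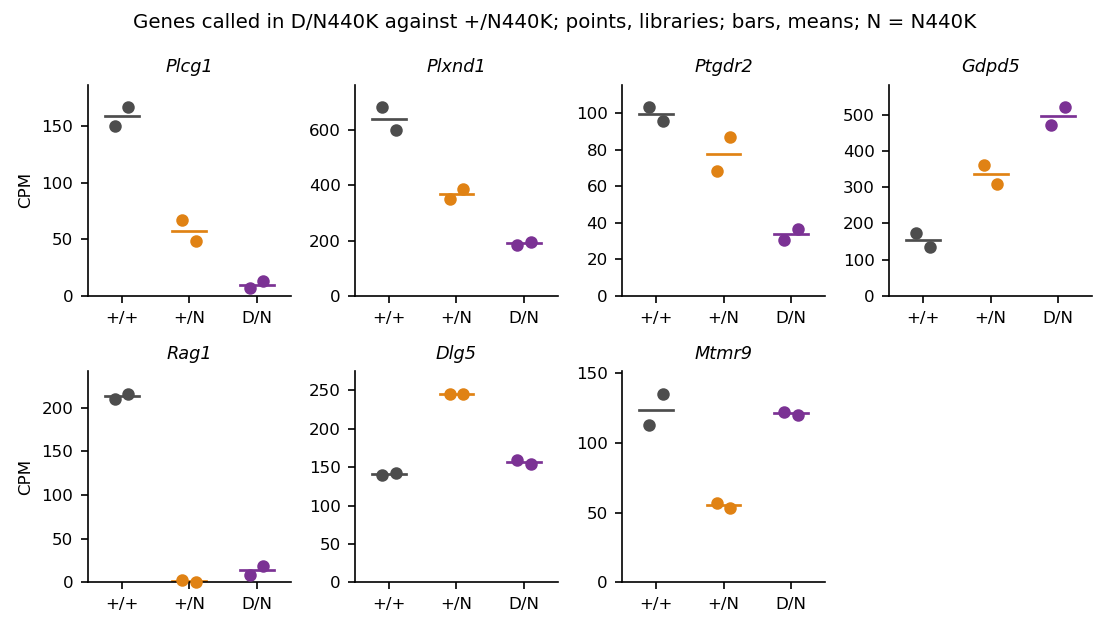
CPM per library of 7 genes called in D/N440K against +/N440K, with +/+ alongside. Plcg1, Plxnd1, Ptgdr2 and Gdpd5 change stepwise over the 3 genotypes, while in Dlg5 and Mtmr9 the +/N440K libraries (+/N) stand apart from the others.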

How the data were processed

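RNA-seq was measured in sorted thymocytes of 3 Bcl11b genotypes at P0, with 2 libraries per group. Per the submitters' processing notes, which give neither roles nor order, the authors used fastp 0.20.0, STAR 2.7.3a, SAMtools 1.9, Picard 2.21.1, HTSeq 0.11.2 and edgeR with mm10 (GRCm38). Annotation release and strand setting are not given in the sources used here. The authors deposited raw read counts per gene and, in a second table, CPM. In every library 100% of CPM values gave whole reads (tolerance 0.001), and the count test on those reads, added after the data were seen, called the same 1353 and 58 genes.

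Counts of the 6 libraries were fitted with edgeR 4.0.16 (R 4.3.3): filterByExpr at a minimum count of 10, TMM, a coefficient per group, the quasi-likelihood test and Benjamini-Hochberg adjustment over the 10910 genes tested. SE is the log2 fold change of a separate fit without a prior count, divided by the square root of F. The log2 fold changes printed are those of the quasi-likelihood test. The fit has 3 residual degrees of freedom and a biological coefficient of variation of 0.0445. A group at 0 reads was set at a floor of 3 reads, and since reads carry no molecular identifiers, such floors and intervals hold counting error alone. DESeq2 1.42.0, limma 3.58.1 (voom, and log2(CPM + 1) or log2(CPM + 5)), other normalizations and filters, and leaving out each library were tried. On simulated counts for D/N440K against +/+ over 10636 genes, 73.5% of 98 genes changed 2-fold and 93.9% of 99 changed 4-fold were recovered, and 1.79% of calls were false. The simulated spread was the one fitted to these libraries, so these shares hold for that spread only. They do not cover differences between animals that the libraries may lack.

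The genotype labels chose the libraries. The comparison and the 55 gene lists (54 with a tested gene) were chosen with earlier results of these data known. Named genes came from set regulators, from the called members of each list in order of p (up to 6 in each direction) and its most abundant uncalled member, and from the genes with the largest changes (12) or smallest p (10, or 8 against +/N440K) in each direction at an average log2 CPM of at least 4. Of 155 named genes 17 fall outside that rule, 16 of them in the closing section. 75 of the 155 overlap another annotated gene. Gene positions and biotypes were read from GENCODE M21, which holds 53706 of the 53801 identifiers, and promoters from RefSeq (GRCm38.p6). The protein around the mutated residue was not analysed here. Figures were drawn with matplotlib 3.10.9 from tables made with Python 3.11.15, pandas 2.3.3 and numpy 2.4.6.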

Additional observations from a re-analysis of the deposited data

How the results depend on the processing

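In D/N440K against +/+, DESeq2 called 528 genes (269 higher, 259 lower), all 528 among the 1353 of edgeR. Asking for a size of 1 or more on the log2 scale left 594 (247 higher, 347 lower). Leaving out each library in turn gave 924 to 1007 genes (447 to 505 higher, 452 to 547 lower). In D/N440K against +/N440K, DESeq2 called 4 genes (1 higher, 3 lower) with an adjusted p for 4987, that size left 21 (11 higher, 10 lower), and no filter on low counts gave 91 (49 higher, 42 lower). Leaving out each library in turn gave 25 to 63 genes (12 to 32 higher, 9 to 31 lower). On log2 CPM, limma called a like number (57 and 56 genes) but 38.6% and 41.1% of them higher, against 53.4%. With the replicate number as a block, 1267 genes were called against +/+ and 37 against +/N440K (16 lower). Same-numbered libraries did not deviate together (correlations of -0.031, -0.066 and 0.003 over 8263 genes). Replicates differed by little more than sampling noise (chi-square per degree of freedom 1.14 to 1.42). These correlations therefore cannot show whether the numbers stand for a shared batch. The sign of Mtmr9 in D/N440K against +/+, which was not called, turned from -0.04 to 0.11 without +/+ replicate 2 (-0.16 without +/+ replicate 1). Of the 149 named genes called against +/+, 134 kept the call without each library in turn, and 7 of 24 did against +/N440K. DESeq2 did not call 19 of the 149. For these counts the cause was not tested. The filter left 10910 genes to test, against 23531 without it and 12484 at a CPM of 5 in 2 libraries.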

Other observations

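Called genes often lay next to each other. Among tested genes in genome order, 65 runs of neighbours no more than 100 kb apart were higher together (152 of the 665 genes called higher) and 74 runs were lower together (178 of 688). Annotations overlapped in 14 and 28 of these runs, where 1 transcript may be counted for several genes. The share that neighbours have among uncalled genes was not computed.

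The longest run of lower genes held 7 genes with no annotated protein on chromosome 1 (GRCm38, 137898595 to 138000384), from Gm4258 (log2 fold change -2.33) to Gm37534 (-2.83), with overlapping annotation. The run around Satb1 (chromosome 17, 51736187 to 51833290) held 6 genes, and each of the 5 beside Satb1 is a transcript of the annotation class TEC that lies within or beside it. Cd5, A430093F15Rik, Cd6 and Slc15a3, a peptide transporter gene, were called lower side by side on chromosome 19 (10717116 to 10859362), without overlap among them. The call of Slc15a3 was lost without +/+ replicate 1 (-0.51, edgeR adjusted p = 0.438) or either D/N440K library, and that of A430093F15Rik without +/+ replicate 2 (edgeR adjusted p = 0.149) or either D/N440K library, and DESeq2 called neither. Cd8b1, Gm44175, Cd8a and Rmnd5a, of a ubiquitin ligase complex, fell together on chromosome 6 (71322788 to 71440637), with log2 fold changes of -3.35 for Cd8b1, -3.03 for Cd8a and -0.45 for Rmnd5a, which was no longer called when +/+ replicate 2 (edgeR adjusted p = 0.0507) or D/N440K replicate 2 (0.161) was left out, nor by DESeq2.

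Among higher genes, the longest run held 7 genes on chromosome 7 (140920902 to 141090510), from the inflammasome gene Nlrp6 (1 read in +/+ and 23 in D/N440K) over the antiviral membrane protein genes Ifitm2 (0.90), Ifitm1 (0.74) and Ifitm3 (1.32) to the plakophilin gene Pkp3 (0.54). Without +/+ replicate 2 the calls of Nlrp6 (edgeR adjusted p = 0.0702) and Ifitm2 (0.0816) were lost, that of Pkp3 was lost without +/+ replicate 1 (0.111) or D/N440K replicate 1 (0.0836), and DESeq2 called none of these 3, so the length of the run rests on single libraries. Prf1, which encodes perforin, rose by 1.38 between its neighbours Adamts14 (1.82) and Pald1 (1.54). Prf1 stood at 2.17 without +/+ replicate 2 and was not called by DESeq2 (adjusted p = 0.0588). Chsy1, a chondroitin synthase, and Lrrk1, a kinase, rose by 1.00 and 0.98 on another stretch of chromosome 7. Genes in these runs were described after their values were seen.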
